A study of Mus musculus with 2 samples.

Results

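Synaptotagmins are vesicle and membrane proteins with a pair of C2 domains, called C2A and C2B, and 10 of their genes were examined: Syt1, Syt2, Syt3, Syt4, Syt5, Syt7, Syt11, Syt12, Syt13 and Syt17. The members were taken by gene symbol, all 10 symbols were found, and the annotation held 55536 genes in all. Total RNA-seq libraries had been made from the left cerebral cortex of 2 male mice, 25 days old, of the strain B6CASTF1/J, a cross of C57BL/6J and CAST/EiJ. The labels name no treatment and both animals belonged to 1 group, so the comparisons were between genes, between transcripts of a gene, between the animals and between a pair of quantifications of the same libraries. Both samples carried the same donor entry in the labels, and every SD over 2 animals rests on the assumption, from their biobank numbers and their labelling as biological replicates, that they were separate mice. With 1 group there was no test between groups and no p-value was computed.

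In neurons, calcium that enters a nerve terminal binds loops at the tip of the C2 domains, and the protein then acts with the SNARE complex and the membrane to drive vesicle fusion. Syt1 and Syt2 are the fast sensors of synaptic vesicles, and Syt7 is a slower sensor of higher affinity that serves asynchronous release and facilitation. Several other members bind calcium weakly or not at all and act in dense-core vesicle traffic, endocytosis or receptor traffic.

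The third loop of C2A carries aspartate residues that hold calcium in Syt1, and the coding sequence of that loop is shown because it divides the members. Each stretch is 33 bases long, lies within 1 exon, runs 5′ to 3′ on the coding strand of the gene's largest transcript, and was cut from the annotated mm10 transcript sequence (GENCODE M21). Capitals mark the codons aligned with the 3 aspartate codons of Syt1. GAT and GAC encode aspartate, and AGC encodes serine.
Syt1: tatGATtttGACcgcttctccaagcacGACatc
Syt2: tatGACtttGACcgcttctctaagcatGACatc
Syt3: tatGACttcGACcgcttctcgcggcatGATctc
Syt5: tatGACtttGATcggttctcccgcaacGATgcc
Syt7: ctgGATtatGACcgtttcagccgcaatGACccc
Syt11: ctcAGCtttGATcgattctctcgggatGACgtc
Syt12: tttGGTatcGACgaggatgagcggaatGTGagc
Syt13: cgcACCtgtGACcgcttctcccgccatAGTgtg
Syt17: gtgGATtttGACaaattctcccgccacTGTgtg
The Syt1 stretch covers codons 229 to 239 of the protein, at chr10:108627343-108627375 on the minus strand in exon 8 of 11. The Syt7 stretch lies at chr19:10442875-10442907 on the plus strand in exon 9 of 12, and the Syt11 stretch at chr3:88761816-88761848 on the minus strand in exon 2 of 4.

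All 3 codons encoded aspartate in Syt1, Syt2, Syt3, Syt5 and Syt7. The first was a serine codon in Syt11, and also in Syt4, whose sequence is not printed. Syt17 kept 2 aspartate codons of the 3, and Syt12 and Syt13 kept 1. In the same loop of C2B, Syt1 and Syt7 had 3 aspartate codons, Syt2, Syt3, Syt5 and Syt11 had 2, Syt4, Syt12 and Syt17 had 1, and Syt13 had 0. Counting glutamate codons as well, all 3 of these C2B codons were acidic in Syt1, Syt2, Syt3, Syt4, Syt5, Syt7 and Syt11, while 2 were in Syt12, 1 in Syt17 and 0 in Syt13. A codon is a description of the sequence and no binding was measured, so the genes are called synaptotagmins here rather than calcium sensors. Across whole coding sequences the closest pair was Syt1 and Syt2, with 74.3% identical aligned bases. Syt2 and Syt5 shared 64.2%, Syt1 and Syt5 62.2%, and the serine pair Syt4 and Syt11 56.9%.

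Levels are given as TPM, which divides each gene's count by its length and scales every library to the same total, so that genes can be compared. The 5 members with all 3 aspartate codons summed to 838 TPM in replicate 1 and 828 TPM in replicate 2 (833 ± 7.03 TPM, SD, n = 2). That was 65.1% and 64.0% of the summed TPM of the 10 members. The serine pair Syt4 and Syt11 summed to 303 and 313 TPM, or 23.5% and 24.2%. Syt12, Syt13 and Syt17 summed to 146 and 152 TPM, or 11.3% and 11.7%. The order of these groups, which hold 5, 2 and 3 genes, was the same in both animals, and the gaps between them exceeded the spread between the animals. The first place rested on Syt1: the other 4 genes of its group summed to 299 and 313 TPM, which overlapped the serine pair.

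All 10 members reached 1 TPM in both animals, against 14744 of the 55536 annotated genes of every kind. The members were chosen with earlier results of these data known, so this count is not a separate result. Together they summed to 1287 TPM in replicate 1 and 1293 TPM in replicate 2. The libraries held 30503944 and 33263801 expected counts, spike-in RNA included, and the least counted member value was 1066 expected counts, for Syt12 in replicate 1. In bulk tissue, fewer cells of a type and less RNA per cell cannot be told apart.

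Of the close pair Syt1 and Syt2, Syt1 stood at 539 and 515 TPM in replicates 1 and 2 (527 ± 17.1 TPM, n = 2). It ranked 66 among 22028 protein-coding genes, and it alone held 41.9% and 39.8% of the members' summed TPM. Syt1 (ENSMUSG00000035864.14) spans chr10:108497650-109010982, the longest span of the 10 genes at 513 kb. Syt2 (ENSMUSG00000026452.15, chr1:134646677-134762593) was at 16.65 and 18.7 TPM (17.7 ± 1.44 TPM), near the bottom of the members. Syt2 is known as the fast sensor of hindbrain, spinal and parvalbumin-positive inhibitory terminals. Pvalb, the marker of those interneurons, was at 41.4 and 41.5 TPM. Of genes that mark neighbouring regions, Gabra6 of cerebellar granule cells was at 0.02 TPM in both animals and Slc6a5 of glycinergic neurons at 0.01 and 0.03 TPM, both on 5 counts or fewer, and Slc17a6, the glutamate transporter typical of thalamus, was at 12.9 and 13.6 TPM. The part of such cells in the level of Syt2 was not tested.

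Syt5, a close relative of Syt1 and Syt2 (ENSMUSG00000004961.7, chr7:4539765-4547541), was at 116 and 123 TPM (119 ± 5.08 TPM). Syt7 (ENSMUSG00000024743.16, chr19:10389090-10453180) was at 142 and 145 TPM (143 ± 2.24 TPM). Syt3, which acts at the plasma membrane and in AMPA receptor endocytosis (ENSMUSG00000030731.13, chr7:44384102-44400187), was at 24.4 and 26.2 TPM (25.3 ± 1.27 TPM). Syt7 was thus above Syt3 in both animals and in both quantifications.

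In the serine pair, Syt11 (ENSMUSG00000068923.14, chr3:88744700-88775164), which is linked to vesicle retrieval, was the second most abundant member at 225 and 238 TPM (231 ± 9.07 TPM). Syt4 (ENSMUSG00000024261.6, chr18:31437808-31447406), a protein of dense-core vesicles, was at 77.7 and 75.6 TPM (76.6 ± 1.53 TPM). Syt11 was above Syt4 in each animal, with no overlap.

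Of the 3 members with other codons in the C2A loop, Syt13 (ENSMUSG00000027220.2, chr2:92915098-92956058) was at 96.5 and 101 TPM (98.5 ± 2.86 TPM). Syt17, which has no transmembrane segment (ENSMUSG00000058420.8, chr7:118380717-118448222), was at 33.4 and 32.3 TPM (32.9 ± 0.799 TPM). Syt12 (ENSMUSG00000049303.10, chr19:4445908-4477447) was at 15.9 and 19.0 TPM (17.4 ± 2.18 TPM). Syt13 was above Syt17 and Syt17 above Syt12 in both animals.

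From highest to lowest mean the order was Syt1, Syt11, Syt7, Syt5, Syt13, Syt4, Syt17, Syt3, Syt2 and Syt12. Values of neighbouring genes did not overlap between the animals, except for Syt2 and Syt12, which could not be ordered. The widest steps were from Syt4 to Syt17, 2.33-fold, and from Syt1 to Syt11, 2.28-fold. In the second quantification, made by another route from the reads, Syt5 and Syt13 overlapped, Syt3 stood above Syt17 and Syt12 stood above Syt2.

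**Figure D1:**
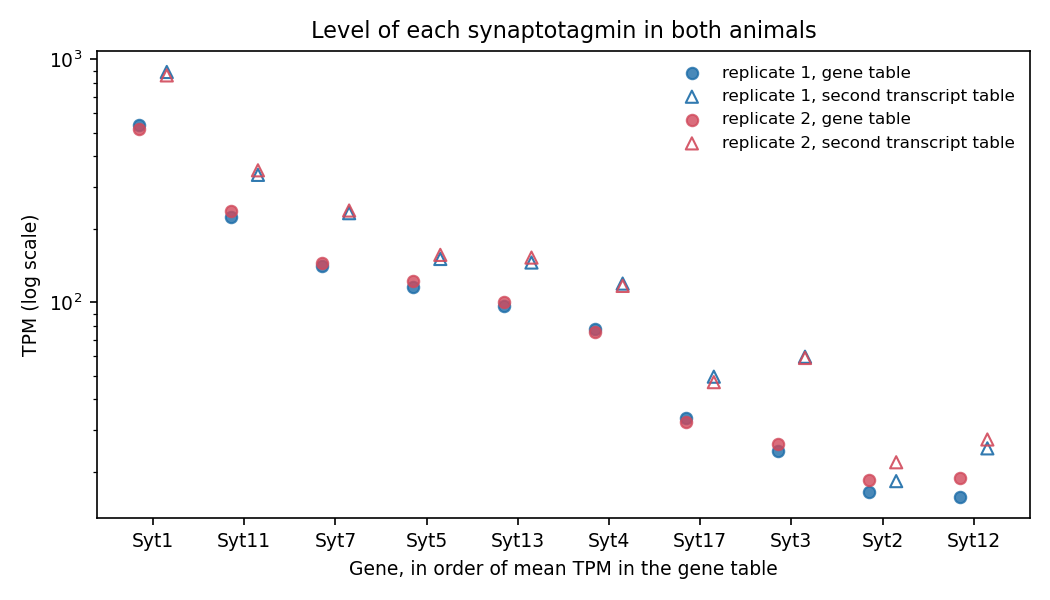
TPM of each member (log scale) in replicate 1 (blue) and replicate 2 (red), from the gene table (circles) and summed from the second transcript table (triangles). In the gene table Syt1 stands at 539 and 515 TPM and the values of Syt2 and Syt12 overlap, while Syt3 shifts most between the tables.

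The second table gave higher TPM for every member, as for most genes: its median ratio to the first was 1.57 over 8109 protein-coding genes at 10 TPM or more, and the range from the 5th to the 95th percentile was 1.24 to 2.25. Syt3 had a ratio of 2.35, exceeded by 3.66% of those genes. Syt2 had a ratio of 1.14, and 2.85% of those genes were lower. In counts rather than TPM, Syt3 had a ratio of 1.06 and Syt2 of 1.12, beside a median of 1.07. Both count ratios were close to that median, while the TPM ratios were not, and the effective lengths used by each quantification were not compared.

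Restricting each gene to transcripts with a complete coding sequence, a choice made after the values were seen, moved the ratios of Syt3 and Syt2 toward that median of 1.57. This did not hold for every member: the ratio of Syt17 went from 1.47 to 1.82 and that of Syt1 from 1.66 to 1.47. Under this restriction Syt3 had 21.9 ± 0.170 TPM in the first table and 32.6 ± 0.410 TPM in the second, a ratio of 1.49. Syt2 had 11.0 ± 0.0212 TPM and 18.9 ± 0.603 TPM, a ratio of 1.72. On this measure both tables placed Syt17 above Syt3, Syt3 above Syt12 and Syt12 above Syt2, and the only exchanged neighbours were Syt13 and Syt5. A short annotated piece of Syt2 held 33.3% and 39.8% of its TPM in the first table on 2.21% and 2.93% of its counts. The partial transcripts of Syt3 held 35.5% and 34.9% in the second table on 4.47% and 4.43% of its counts, and its processed transcript was at 1.44 ± 0.573 TPM in the first table and 5.94 ± 0.499 TPM in the second.

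**Figure D2:**
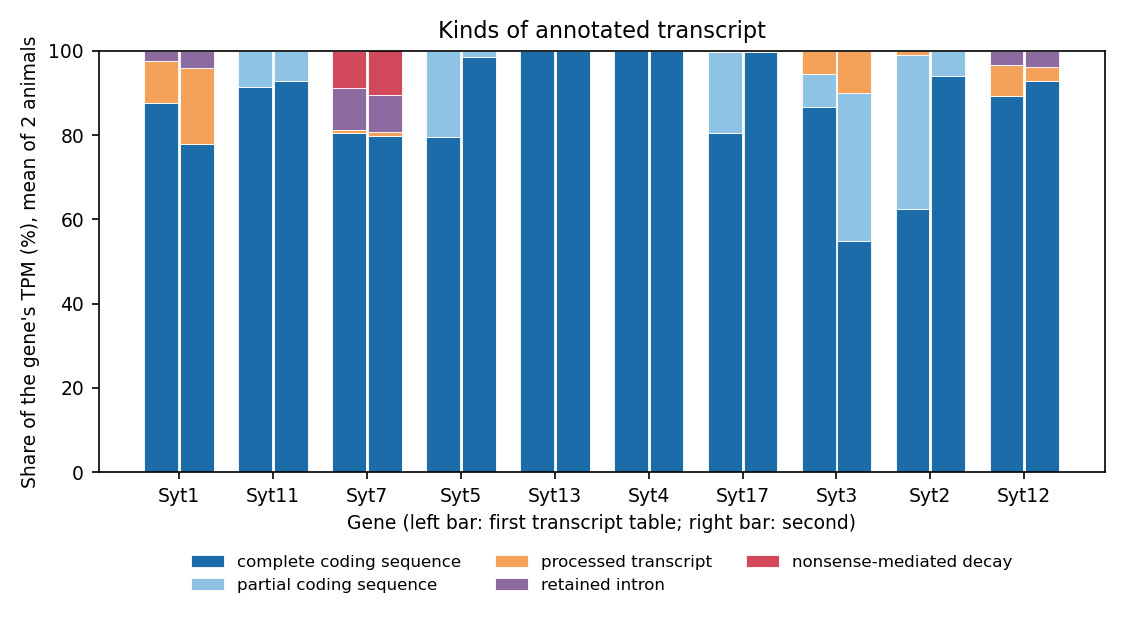
Share of each gene's TPM (%, mean of 2 animals) in each kind of annotated transcript, with the first transcript table in the left bar and the second in the right bar. Syt4 and Syt13 have 1 transcript each, Syt2 and Syt3 change most between the tables, and Syt7 alone has transcripts annotated for nonsense-mediated decay.

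The largest transcript was the same in both tables for 10 of 10 members. For Syt4 and Syt13, with 1 annotated transcript each, this could not be otherwise. Syt1-201, which encodes the whole protein of 421 codons, held 84.1% and 81.5% of Syt1 TPM in the first table and 74.2% and 71.9% in the second. Syt1-206, a processed transcript with no coding sequence that starts at another site, held 9.34% and 10.5%, and 17.4% and 18.9% in the second table. Its counts were 2.23% and 2.54% of the gene's in the first table, since the transcript is short. The order of these transcripts was the same in each animal and table.

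The coding transcripts of Syt2 began at a pair of annotated transcript start sites. Syt2-201, from the downstream start at position 134709300 of chromosome 1, held 57.6% and 51.6% of the gene's TPM in the first table and 72.8% and 61.7% in the second. Syt2-203 and Syt2-204, from the upstream start at 134646677, held 41.7% and 47.2%, and 27.2% and 38.3% in the second table. By counts the downstream start held 91.3% and 90.7%, and 85.2% and 83.3% in the second table. The transcript from the downstream start therefore led in all 4 estimates. Syt2-201 is annotated with 5471 bases after its last coding codon, Syt2-204 with 1739 and Syt2-203 with 0. Reads from much of that longer tail can be assigned to Syt2-201 only, whichever start was used. How much of its share rests on them was not tested. Syt2-201 and Syt2-204 have the same coding sequence of 422 codons.

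The 250 bases before each RefSeq start of Syt2 (assembly GRCm38.p6, plus strand) are shown because transcripts annotated from both starts were assigned counts. Capitals mark matches on either strand to the GC box GGGCGG or the CAAT box CCAAT. The upstream window is chr1:134646362-134646611 and the downstream window is chr1:134709050-134709299, which lies in an intron of Syt2-203 and Syt2-204.
Syt2 upstream start: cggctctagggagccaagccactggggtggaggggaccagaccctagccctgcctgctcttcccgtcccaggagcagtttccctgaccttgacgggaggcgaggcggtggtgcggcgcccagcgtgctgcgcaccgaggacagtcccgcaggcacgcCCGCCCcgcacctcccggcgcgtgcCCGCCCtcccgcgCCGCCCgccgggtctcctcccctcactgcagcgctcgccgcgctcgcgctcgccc
Syt2 downstream start: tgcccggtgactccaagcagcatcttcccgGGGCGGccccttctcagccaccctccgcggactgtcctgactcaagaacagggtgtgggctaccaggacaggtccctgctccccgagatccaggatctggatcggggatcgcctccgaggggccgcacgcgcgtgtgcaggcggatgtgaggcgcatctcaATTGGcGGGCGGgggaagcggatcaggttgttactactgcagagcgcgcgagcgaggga
The upstream window had 76.0% G and C, 30 CpG pairs and 3 GC boxes. The downstream window had 66.4% G and C, 22 CpG pairs, 2 GC boxes and 1 CAAT box. Over 32851 RefSeq promoter windows of the same length the median was 52.4% G and C and 6 CpG pairs, 32.7% held a GC box and 33.8% a CAAT box. Neither Syt2 window held the letters TATAAA, which 12.4% of the windows had. A match is a description of the sequence and not a binding site. Of the other members, Syt1, Syt3 and Syt11 were matched in the RefSeq promoter table. The main Syt1 window had 56.4% G and C, 1 GC box and 2 CAAT boxes, while the window before the start of Syt1-206 had 42.8% G and C and neither box.

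Syt7 had the most annotated transcripts, 15, and 9 of them encode a complete protein. They differ in exons of the linker between the membrane segment and the C2 domains. Exons of 132, 228, 369 and 123 bases, each a multiple of a codon, are kept or skipped there. Syt7-202 (611 codons) keeps 3 of them, Syt7-203 (687 codons) keeps all 4 and Syt7-201 (403 codons) keeps 0. Syt7-201 is the form closest in length to Syt1.

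The 132-base exon lay at chr19:10421757-10421888 on the plus strand, and the transcripts that keep it held 74.5% and 72.6% of the complete coding TPM in the first table and 62.7% and 60.1% in the second. The 369-base exon, at chr19:10426299-10426667, was kept in 78.4% and 74.4%, and 61.8% and 60.1% in the second table. The 123-base exon, at chr19:10430338-10430460, was kept in 78.8% and 74.7%, and 62.0% and 60.3%. These 3 exons were thus in the majority of the estimated coding transcripts in both animals and both tables. The 228-base exon, at chr19:10422785-10423012, was kept in 16.6% and 17.1%, and 16.4% and 17.1% in the second table. The commonly kept 132-base exon and the mostly skipped 228-base exon are shown, all in lower case. Syt7-202 and Syt7-203 both keep the former, and Syt7-203 alone of this pair keeps the latter.
Syt7 exon of 132 bases: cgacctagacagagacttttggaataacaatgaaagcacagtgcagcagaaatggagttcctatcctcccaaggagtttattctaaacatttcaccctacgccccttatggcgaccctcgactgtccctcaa
Syt7 exon of 228 bases: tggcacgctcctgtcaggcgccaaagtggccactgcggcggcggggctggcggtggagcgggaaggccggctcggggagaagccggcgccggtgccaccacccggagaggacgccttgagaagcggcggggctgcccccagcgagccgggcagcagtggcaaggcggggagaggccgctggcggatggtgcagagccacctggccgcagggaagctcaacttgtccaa

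Syt7-202 held 61.2% and 57.9% of the complete coding TPM in the first table and 53.2% and 51.5% in the second. The short Syt7-201 held 18.2% and 19.7%, and 29.5% and 31.4% in the second table. Syt7-203 held 13.3% and 12.9%, and 8.56% and 8.63%. The order of the first pair was the same in all 4 estimates, and the difference between the tables exceeded that between the animals. Syt7-202 is annotated with 4739 bases after its last coding codon, while Syt7-201 and Syt7-203 have 3, so reads from most of that tail can be assigned to Syt7-202 only. How much of its share rests on them was not tested.

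A further exon of Syt7 ends the reading frame. It is exon 5 of 14 of Syt7-209, a transcript annotated for nonsense-mediated decay, and is 123 bases long. The frame stops after 22 of its bases, at chr19:10422395-10422416 on the plus strand, shown with the stop codon in capitals.
Syt7-209 exon, up to the stop: cccgctcttcctccgtcgtTAA
Syt7-209 and Syt7-215, the transcripts of Syt7 annotated for decay, held 9.71% and 8.14% of the gene's TPM in the first table and 11.0% and 10.1% in the second. A retained-intron transcript, Syt7-206, held 8.61% and 11.1%, and 8.55% and 9.16% in the second table, on 0.824% and 1.09% of the counts in the first table. No other member had a transcript annotated for decay.

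**Figure D3:**
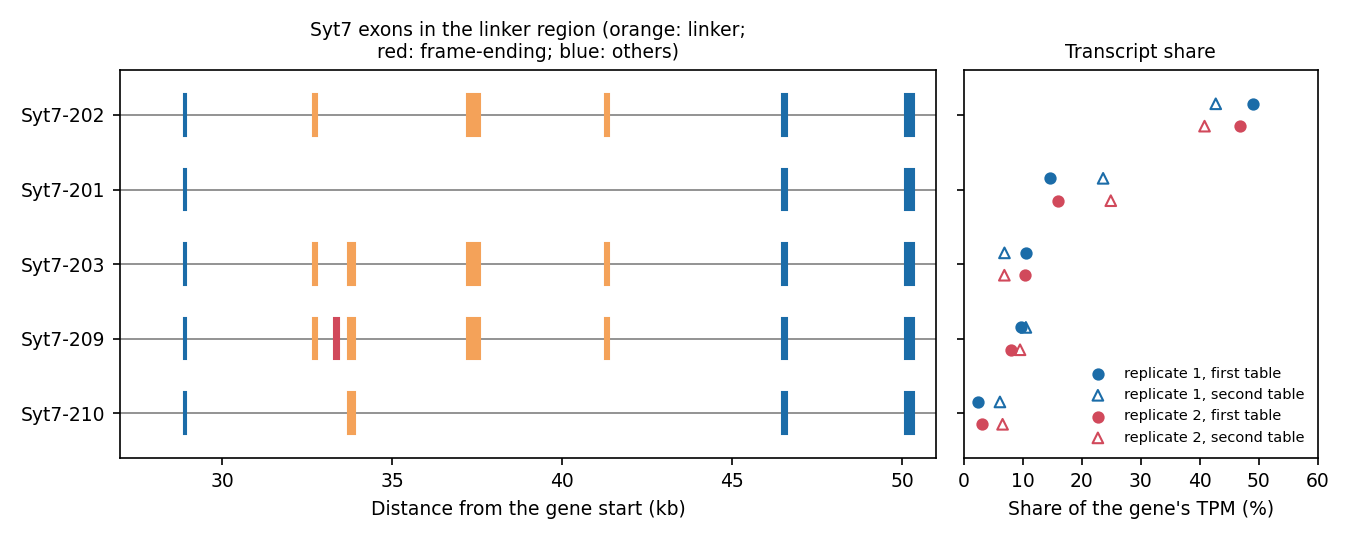
Left, exons of 5 Syt7 transcripts drawn to scale by distance from the gene start (kb), with linker exons in orange, the frame-ending exon in red and other exons in blue. Right, share of Syt7 TPM (%) of each in both animals and both tables: Syt7-202 leads with 49.0% and 46.8% in the first table.

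In Syt11 the tables disagreed over a start site. Syt11-203, which starts upstream of Syt11-201 and has the same coding sequence of 430 codons, held 0.200% and 0% of the TPM in the first table and 25.0% and 26.5% in the second. Syt11-201 held 86.9% and 83.7%, and 65.6% and 64.3%. For both transcripts the tables differed by more than the animals did. A short coding transcript, Syt11-202, held 6.51% and 5.77% in the first table, and 4.13% and 0.0664% in the second, where only replicate 2 was near 0. The complete coding transcripts as a whole held 93.6% and 89.5%, and 94.7% and 90.9%. Syt11-202, annotated as complete with 124 codons, is included there.

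In Syt17 the first table divided the gene differently in the 2 animals. Syt17-201 held 67.3% in replicate 1 and 85.9% in replicate 2, and Syt17-202, annotated without a start codon and otherwise 1 codon shorter, held 28.6% and 9.25%. In the second table Syt17-202 was listed at 0 in both animals and Syt17-201 held 87.9% and 90.9%. The gene's summed level, at 33.4 and 32.3 TPM, did not show this difference. In Syt5 the partial transcript Syt5-202 held 17.2% and 19.8% in the first table, on 3.68% and 4.35% of the counts. It was listed at 0 in the second. In Syt12 the short Syt12-202 held 2.39% and 12.3%, on 0.184% and 1.03% of the counts, and was listed at 0 in the second table. In Syt3, Syt3-202 held 61.8% and 50.4%, and Syt3-201 with the same coding sequence held 20.1% and 27.6%. In the second table Syt3-202 held 51.8% and 50.9%, and Syt3-201 held 2.14% and 4.56%. Syt3-204, a partial transcript, held 5.69% and 8.62%, but 23.0% and 20.8% in the second table, on 28 counts there in each animal. Syt3-205, also partial, held 0% and 1.33%, but 12.5% and 14.1% in the second table.

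Between the animals, 0 of 10 members differed by over 1.2-fold on the scale of TPM + 0.5, where 20.0% of the 18136 genes with a mean of at least 10 expected counts did and 7.47% were higher in replicate 2 by that much. By TMM-scaled counts 0 of 10 did, beside 22.7% of all genes in either direction and 10.3% higher in replicate 2. By the second table's TPM 0 of 10 did, beside 23.7%. These shares of all genes were not matched for counts. They include genes down to a mean of 10 expected counts, while no member had fewer than 1066, so they do not show that the members were unusually stable. By TPM of the gene table the widest difference was that of Syt12, 1.19-fold higher in replicate 2, a log2 difference of 0.25. In the second table the widest was that of Syt2, at 0.25, with Syt12 at 0.12. After scaling the counts by TMM, a method that sets the bulk of genes level, Syt12 differed by 0.17, with a 95% exact binomial interval of 0.05 to 0.29 that covers counting error only. Syt1 was lower in replicate 2 by TPM, at -0.07, and by TMM, at -0.05 with an interval of -0.07 to -0.03, but was higher by 0.10 when counts were scaled to the spike-in RNA. By spike-in scaling the median of all genes rose by 0.15, so this sign depends on the scale, and Syt12 then passed 1.2-fold, at 0.32, as did 31.3% of all genes in either direction and 23.3% in that direction, with 7.97% in the other.

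Of the 10 members, 7 were higher in replicate 2 by TPM, 8 by TMM, 6 in the second table and 10 by spike-in scaling, while of all genes tested 41.5% were higher by TPM, 52.0% by TMM, 44.3% in the second table and 80.0% by spike-in scaling. The median member difference was 0.07 by TPM, beside -0.03 for all genes tested. Syt4 and Syt17 were at 0.00 by TMM, and Syt3 was 0.10 by TPM but -0.02 in the second table. Counting intervals by TMM excluded 0 for Syt1, Syt5, Syt11, Syt12 and Syt13, 5 of 10, beside 21.6% of all genes tested. These intervals narrow as counts rise, and the share was not matched for counts. Syt2 differed by 0.16 by TPM and by 0.25 in the second table. Its complete coding transcripts were at 11.0 TPM in each animal in the first table, a difference of 0.00. They differed by 0.06 in the second. Syt17 showed the reverse, with 23.9 and 29.0 TPM of complete coding transcripts in the first table, a difference of 0.28, against -0.07 in the second.

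**Figure D4:**
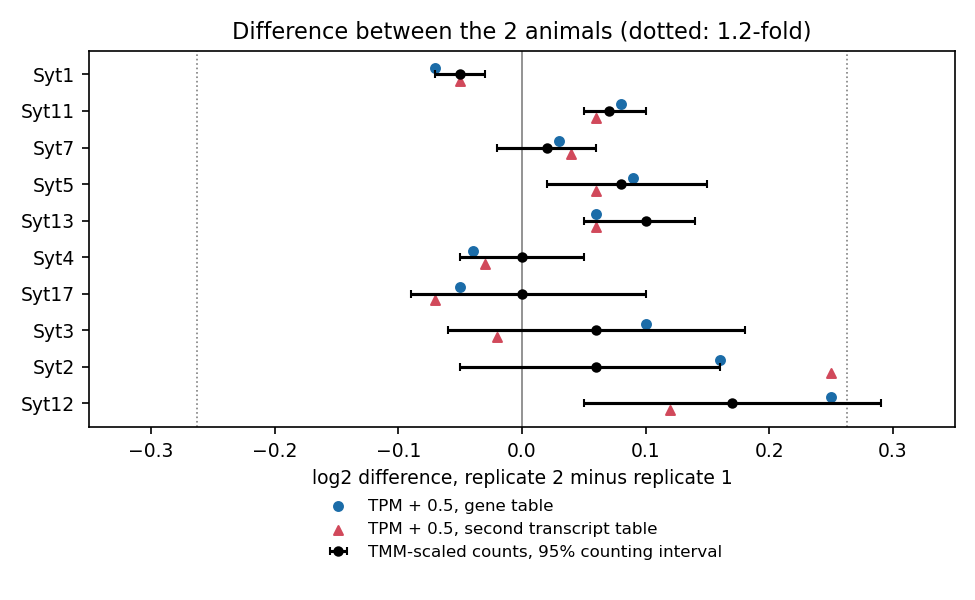
log2 difference of each member, replicate 2 minus replicate 1, by TMM-scaled counts with the 95% counting interval (black), by TPM + 0.5 of the gene table (blue) and of the second transcript table (red). No point passes the dotted lines at 1.2-fold, and Syt12 is farthest from 0 in the gene table at 0.25.

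Other groups of genes differed between the animals. The 4 markers of mature oligodendrocytes summed to 702 and 941 TPM. All 4 were over 1.2-fold higher in replicate 2, beside 7.47% of all genes tested. The 6 immediate early genes, which neuronal activity induces, summed to 496 and 288 TPM. All 6 were over 1.2-fold lower, beside 12.5% of all genes tested. The 3 choroid plexus markers summed to 21.4 and 197 TPM, nearly all of it Ttr, at 19.5 and 192 TPM. Kl was at 1.37 and 2.43 TPM and Folr1 at 0.59 and 2.26 TPM. The 7 cortical neuron markers summed to 2264 and 2230.2 TPM, and 0 of 7 passed 1.2-fold, beside 20.0% of all genes tested. The part of these shifts in the members' small differences was not tested.

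The other 7 synaptotagmins summed to 69.7 and 71.6 TPM, and 5 of 7 reached 1 TPM in both animals. The members were chosen with earlier results of these data known, so their higher sum is not a separate result. Syt16 led with 43.5 and 44.2 TPM, above Syt17, Syt3, Syt2 and Syt12 in the gene table. Syt14 followed with 11.5 and 11.1 TPM and Syt10, an activity-induced member, with 6.60 and 6.82 TPM. Syt8 had 0 counts in both libraries, where 3 counts over a transcript of 2 kb would be 0.0784 and 0.0701 TPM. Of the 6 with enough counts, 1 passed 1.2-fold, beside 20.0% of all genes tested. This was Syt6, at 3.39 and 4.53 TPM, a log2 difference of 0.37, but -0.02 in the second table.

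Among 15 genes of other proteins with paired C2 domains, 9 reached 1 TPM. Rph3a, which encodes rabphilin, an effector of Rab3 on synaptic vesicles, was at 141 and 137 TPM, close to Syt7. Sytl2 was at 40.8 and 33.4 TPM and Doc2a, a sensor in spontaneous and asynchronous release, at 25.6 and 25.2 TPM. Of the 14 with enough counts, 3 passed 1.2-fold, beside 20.0% of all genes tested. Rph3al was higher in replicate 2 at 0.35, and Sytl2 at -0.28 and Sytl1 at -0.44 were lower. Rph3al had only 37 and 53 counts and Sytl1 29 and 12. Sytl2 did not pass by TMM, at -0.13, or in the second table, at -0.18. Sytl3, below the count minimum, was at 0.33 and 0.04 TPM. Of 16 genes of the release machinery all reached 1 TPM and 1 passed 1.2-fold, beside the same 20.0%. It was Cplx3, at 5.23 and 7.61 TPM. Snap25 led with 1168 and 1155 TPM, followed by Vamp2 with 528 and 503 TPM, a vesicle SNARE at a level close to that of Syt1.

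**Figure D5:**
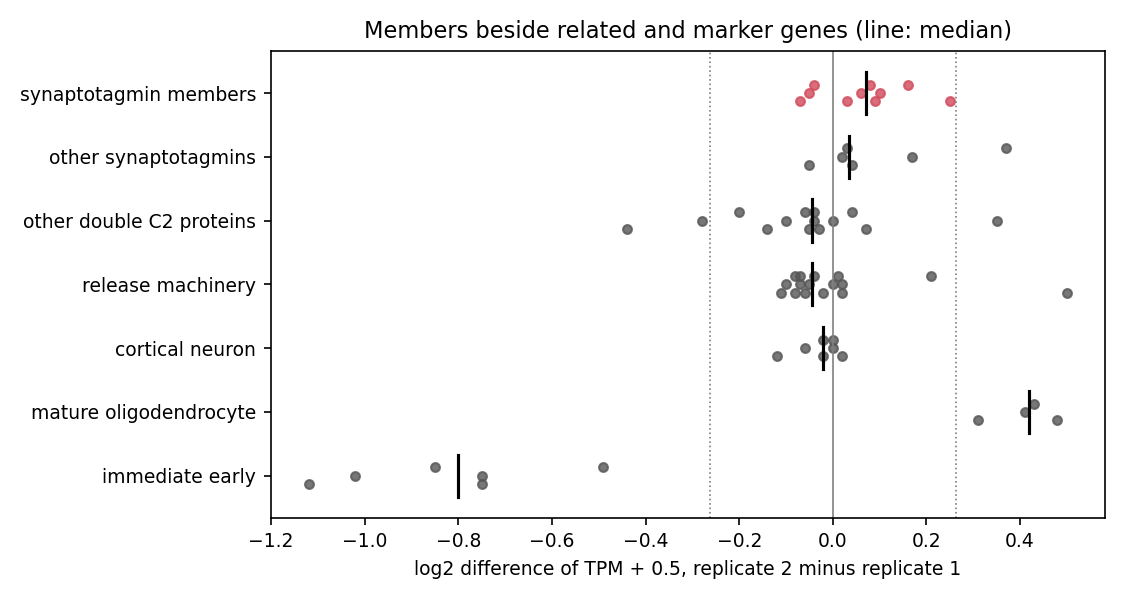
log2 difference of TPM + 0.5, replicate 2 minus replicate 1, for each gene (points) with the median of its list (black line). The 10 members lie between -0.07 and 0.25, within the dotted lines at 1.2-fold, while oligodendrocyte and immediate early genes lie outside them on opposite sides.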

How the data were processed

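The data were total RNA-seq of 2 samples in 1 group. Per the file lists deposited with each library, the assembly was mm10 and the annotation GENCODE M21. The authors deposited a gene table and a first transcript table from a transcriptome alignment, with expected counts and TPM per the file headers, and a second transcript table made from the reads directly, with estimated counts and TPM. The aligner, the programs with their versions and the strand setting were not stated in the labels or headers used. If strand was not used, reads of overlapping antisense genes cannot be told apart. Reads of both parental alleles were counted against a C57BL/6J reference, and their balance was not analysed here.

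Members were matched by gene symbol and identifier. Scaling factors and counting intervals used expected counts rounded to the nearest whole number. Blank, numbered rows (7 and 10 counts) and the spike-in RNA (131702 and 129524 counts) stayed out of library sizes. Differences were taken on log2 of TPM + 0.5, over genes with a mean of at least 10 expected counts, with 1.2-fold as the line, and again after TMM scaling (edgeR 4.0.16), DESeq2 1.42.0 size factors and spike-in scaling in R 4.3.3. Only the TMM scaling and the fold rule were tested on simulated counts, which varied by counting error alone. With 1 group no test between groups could be made. Coding sequences were built from the annotation and aligned with MAFFT 7.526, and promoter windows came from RefSeq. A complete coding sequence has an annotated start and stop codon. Named were all members, transcripts with a mean share of at least 10% in either table, non-coding kinds of at least 5%, the 3 highest genes of each list and any list gene over 1.2-fold apart; 1 gene under this rule is not reported here. The members and lists were chosen with earlier results of these data known. Python 3.11.15 was used for the remaining steps.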

Additional observations from a re-analysis of the deposited data

How the results depend on the processing

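All 10 members, chosen with earlier results of these data known, stayed at 1 TPM or more under every alternative run for that count. They also kept the same largest transcript under every alternative, which was fixed for Syt4 and Syt13 with 1 transcript each. The summed TPM of the members was 2685 over protein-coding genes only, 2028 in the second table and 1255 by posterior mean TPM, and lay between 1287 and 1293 with either animal left out. The share of Syt1 was 43.1% in the second table and 46.1% by expected counts, which weight long transcripts, and lay between 39.8% and 41.9% with either animal left out. The median log2 difference of the members was 0.20 by spike-in scaling, where the median of all genes moved to 0.15. The count of members over 1.2-fold was 1 by spike-in scaling, where Syt12 reached 0.32. That count was also 1 over complete coding transcripts, where Syt17 reached 0.28, an alternative chosen after seeing the data. The cause was not tested. No paired analysis was possible because there is 1 group. With 2 animals the spread is known only roughly, counting intervals leave out animal and library variation, and transcript shares rest on models that differed between the tables.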

Other observations

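Several members overlap other annotated genes, and these neighbours were low beside them, with 1 exception. On the opposite strand to Syt2, Ppp1r12b, a myosin phosphatase subunit gene, was at 36.8 and 34.6 TPM with 5591 and 5831 expected counts, more than the 1433 and 1623 counts of Syt2. On the strand of Syt7, AC124169.1 was at 1.29 and 0.75 TPM, and on that of Syt1, Gm47477 was at 2.46 and 1.73 TPM. Gm26658, antisense to Syt4, was at 0.10 and 0.13 TPM. Within Syt3, Gm45124 was at 0.67 and 0.89 TPM. Reads shared with these neighbours were not tested.

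Syt11-205, a partial transcript of Syt11, stood at 14.1 and 25.0 TPM in the first table and at 17.7 and 31.9 TPM in the second, so both tables placed it higher in replicate 2. The complete coding transcripts of Syt11 were at 210.4 and 213 TPM in the first table and at 317 and 318 TPM in the second. That sum includes the short Syt11-202, at 13.8 and 0.232 TPM in the second table. There Syt11-201 was at 219.5 and 225 TPM and Syt11-203 at 83.6 and 92.7 TPM, both higher in replicate 2. In the first table Syt11-201 was at 195.32 and 199.0 TPM and Syt11-203 at 0.45 and 0 TPM.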
